A study of Homo sapiens with 6 samples.

Results

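The lysosome is the acidic compartment in which cells digest proteins, sugar chains, sulfated polysaccharides and lipids. Its hydrolases are made in the endoplasmic reticulum, tagged with mannose 6-phosphate in the Golgi and carried to the organelle by receptors, while a proton pump keeps the lumen acid and heavily glycosylated membrane proteins line its wall. The related transcription factors TFEB, TFE3 and MITF bind the E-box CACGTG and are known to switch on many of these genes. The genes described here are 49 lysosomal hydrolases, membrane proteins, pump subunits, sorting factors and transcription factors, chosen by name from a table of 24294 loci. All 49 were found in the table, and where a symbol stood in several rows (GLB1 and NEU1) the row with the highest mean was used. Of the 49 genes, 47 had a mean of at least 1 FPKM (a fragment count divided by transcript length and library size) over all libraries and were tested, and CTSF and CTSH lay below that minimum.

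The data are RNA sequencing of MCF12A cells, an immortalized, non-tumorigenic human mammary epithelial line that the labels call a breast cancer line. The 2 groups are MCF12A stably over-expressing miR-424 and MCF12A stably carrying an empty vector (EV), each with 3 samples grown for 48 hours. Both groups are thus stable derivatives of the same line, and the labels name neither the vector nor its promoter, nor do they say whether a group is 1 clone or 1 pool. Per the labels the cultures were triplicates, and separately derived lines are not named, so p-values measure only how far these samples spread, and that spread may be technical. The comparison asks which transcripts differ when miR-424 is over-expressed.

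The construct was seen in every library of its group. The locus that holds MIR424 and its host transcript (MGC16121; chromosome X, 133677406 to 133680741, hg19) read 107, 106 and 224 FPKM in miR-424 replicates 1, 2 and 3, against 0.989, 1.27 and 1.23 FPKM in EV replicates 1, 2 and 3. These libraries do not measure the mature microRNA. FPKM summed to between 409776 and 424564 per library, and the sources used here do not give read depth. Of 8 luminal markers 5 were at 1 FPKM or more, with a summed level of 247 to 267 FPKM in miR-424 libraries and 258 to 267 FPKM in EV libraries, most of it from KRT8 and KRT18. The luminal markers KRT19, ESR1 and FOXA1 were under 1 FPKM in both groups, and MUC1 averaged 3.66 ± 0.536 FPKM in miR-424 cells and 4.86 ± 0.241 FPKM in EV cells without overlap (SD, n = 3 each). The basal marker TP63 was under 1 FPKM in both groups, as were 7 of 8 listed leukocyte markers, 5 of 7 fibroblast markers and 5 of 5 endothelial markers. The exceptions were LAPTM5, itself a lysosomal membrane protein gene, and the fibroblast list's DCN and COL1A1, and the summed fibroblast list lay between 164 and 186 FPKM in miR-424 libraries and between 156 and 166 FPKM in EV libraries. Of 7 basal markers 6 were at 1 FPKM or more, and the sum of the list was 102 to 105 FPKM in miR-424 libraries and 123 to 129 FPKM in EV libraries. The list did not move one way: KRT5 and ITGB4 fell, with log2 changes of -0.63 and -0.48, KRT14 rose, with 0.71, and KRT17, ITGA6 and LAMB3 overlapped between the groups at 0.12, 0.05 and 0.06 (limma). The part of these markers in the results below was not tested. In bulk RNA, fewer cells that express a gene and less of its RNA per cell cannot be told apart.

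MiR-424 replicate 3 stood apart from replicates 1 and 2. It also had the highest reading at the MIR424 locus, 224 FPKM against 107 and 106 FPKM. The part of this in the differences below was not tested. Per locus, the median size of the log2 difference was 0.142 and 0.152 between replicate 3 and replicates 1 and 2, against 0.0408 between replicates 1 and 2. This difference followed the GC content of the transcript: loci under 45% GC were lower in replicate 3 than in the mean of replicates 1 and 2 by a median log2 difference of -0.23, and loci of 55% GC and over differed by 0.04. Replicates 1 and 2 also moved with GC content against the EV mean. Their median log2 deviations were 0.04 and 0.05 under 45% GC and -0.08 and -0.10 at 55% and over, against -0.18 and -0.05 in replicate 3. A fit without replicate 3 thus still holds a trend on GC content, whose cause was not tested. Values without replicate 3, and with the trend of each library on GC content removed, are therefore given below for many genes. Every lysosomal gene called in either setting is named further below. Removing the trend also takes out the overall offset of each library: the median log2 change over tested loci was -0.05 before and 0.005 after.

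The sequence that the cells over-express is shown first, because a microRNA acts on mRNAs that carry a match to its seed. MiR-424-5p is given 5′ to 3′ (RefSeq, GRCh38.p14, chromosome X, minus strand), with the seed, bases 2 to 8, in capitals. Mature miR-16-5p, the best known microRNA with the same seed, is set beside it.
miR-424-5p: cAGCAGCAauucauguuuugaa
miR-16-5p: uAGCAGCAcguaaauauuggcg
The match to this seed in an mRNA is TGCTGCT. It was found on the sense strand in the longest annotated 3' UTR of 11 of the 46 tested lysosomal genes that have one (23.9%; GENCODE 29), against 2510 of 10695 tested loci (23.5%). The 11 genes were CTSC, GAA, GLB1, HEXA, IGF2R, LAMP1, LAMP2, NPC2, PPT1, SORT1 and ATP6V1B2. The windows of 3 of them are printed because these 3 had an unadjusted p under 0.05 in the comparison of groups; the match is in capitals and coordinates are GRCh38.
PPT1, chr1:40072839-40072868, minus strand: gaaccgtgttggTGCTGCTaagtttagcca
IGF2R, chr6:160105390-160105419, plus strand: cgaagaaaccctTGCTGCTttagtcccgat
CTSC, chr11:88323034-88323063, minus strand: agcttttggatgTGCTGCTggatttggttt
The log2 changes of the 11 genes, miR-424 minus EV, lay between -0.15 and 0.12 with a median of -0.07, and 0 of them passed the test described next. Over all tested loci the median was -0.06 with a match and -0.04 without one. Of the loci with a match, 251 passed that test as lower in miR-424 cells and 24 as higher. The lower calls are 10.0% of the loci with a match, against 5.52% of those without. A match in a UTR is a description of its letters and not a shown site of action.

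Lysosomal genes were abundant in these cells, and their differences between miR-424 and EV were small. Their summed level was 2415, 2384 and 2517 FPKM in miR-424 replicates 1, 2 and 3, against 2480, 2440 and 2490 FPKM in EV replicates 1, 2 and 3, so the groups overlapped. Of the 47 tested genes 0 passed the test (limma on log2(FPKM + 1), with p-values adjusted after Benjamini and Hochberg, BH, over 11574 loci and a threshold of 0.05), whereas 7.56% of all tested loci did, 1.24% higher and 6.32% lower in miR-424 cells. At an unadjusted p under 0.05 there were 9 lysosomal genes, 3 higher and 6 lower (19.1%), against 23.6% of all tested loci, 4.29% higher and 19.3% lower. The groups did not overlap for 14 of the 47 genes, 4 higher and 10 lower in miR-424 cells (29.8%), against 33.5% of all tested loci, 6.59% higher and 26.9% lower. The median log2 change was -0.03, against -0.05 over all tested loci, and the single values ran between -0.22 (FUCA1) and 0.18 (GNPTAB).

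With all libraries on the log2(FPKM + 1) scale, the 95% confidence interval of the log2 change stayed within 0.5 in either direction for 47 of 47 tested genes and within 0.25 for 33, with the lowest bound at -0.43 (SGSH) and the highest at 0.41 (MITF). The added 1 compresses changes of low genes, and the limit of 0.5 was passed in some alternatives, with bounds of up to 0.53 at a pseudocount of 0.1, up to 0.51 without EV replicate 1 and down to -0.501 without EV replicate 3. A p above the threshold does not show that a gene was equal in both groups. With all libraries scaled by median of ratios or by quantile normalization 2 genes were higher and 0 lower, the sulfatase gene IDS and the phosphotransferase gene GNPTAB in both cases; of all tested loci 6.76% passed with median of ratios (2.97% higher, 3.78% lower) and 6.62% with quantile normalization (2.76% higher, 3.86% lower). Their splits over all tested loci were 344 higher and 438 lower and 319 higher and 447 lower, against 144 and 731 as deposited.

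**Figure D1:**
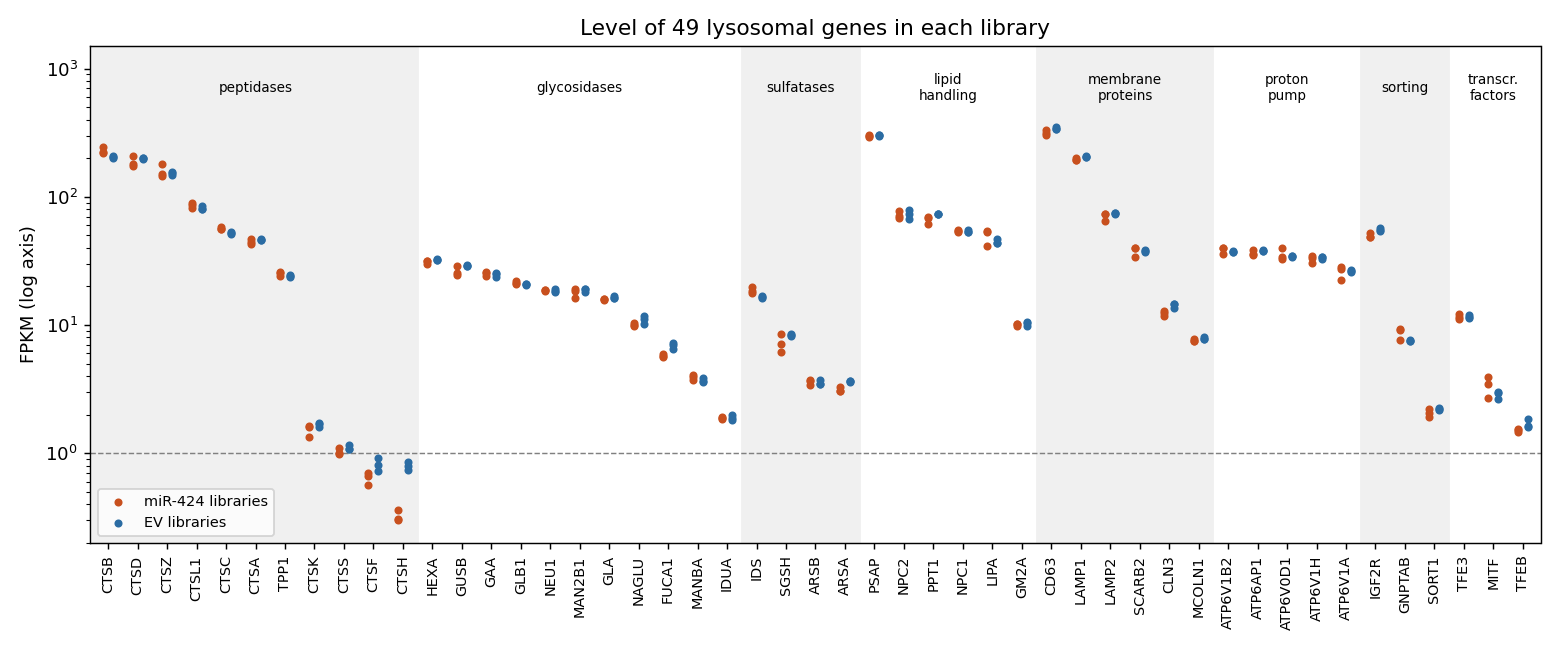
FPKM (log axis) of the 49 lysosomal genes, grouped by role and ordered by mean level within a role, with 1 point for each miR-424 library (left of each pair) and each EV library (right); the dashed line is the minimum mean of 1 FPKM for testing. CD63, PSAP, CTSB and LAMP1 are the 4 highest, and CTSF and CTSH lie below the line.

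Several roles shared the top of the range of levels. Highest in mean FPKM over all libraries were the tetraspanin gene CD63 (329.8), PSAP (299.8), which encodes the precursor of the saposins that help hydrolases reach sphingolipids, the cysteine protease gene CTSB (217), LAMP1 (201), which encodes a main glycoprotein of the lysosomal membrane, and the aspartic protease gene CTSD (193). Of the 47 tested genes 33 lay above the median tested locus, which was at 10.4 FPKM, and the median lysosomal gene was at 25.0 FPKM. By role, the median level was 61.8 FPKM for lipid hydrolases, activators and sterol carriers, 55.1 FPKM for membrane proteins and 54.4 FPKM for the tested peptidases. At the low end stood CTSS, a protease gene known from antigen-presenting cells, at 1.06 FPKM, followed by TFEB at 1.594, the osteoclast protease gene CTSK at 1.595 and IDUA at 1.89 FPKM. FPKM is scaled to transcript length, so that these levels can be set side by side, but only roughly. Differences between libraries moved with GC content, and the regions of some rows, such as CTSD and GLA, also hold other genes.

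Among the peptidases, CTSB had the highest level and its groups did not overlap. CTSB (chromosome 8, 11700033 to 11725646, hg19) read 223, 221 and 246 FPKM in miR-424 replicates 1, 2 and 3, against 200.3, 203 and 207 FPKM in EV replicates 1, 2 and 3. All miR-424 libraries were above all EV libraries, and replicate 3 was the highest. The log2 change was 0.17 ± 0.05 (SE; limma, BH-adjusted p = 0.0875), and it passed with the GC trend removed (0.23, adjusted p = 0.0308) and without miR-424 replicate 3 (0.12, adjusted p = 0.00379); over 18 alternatives the adjusted p lay between 0.00104 and 0.291. CTSC, a dipeptidyl peptidase that activates serine proteases, read 56.1, 56.4 and 57.7 FPKM in miR-424 replicates, against 52.8, 51.5 and 52.1 FPKM in EV replicates. Its log2 change was 0.12 ± 0.03 (SE; limma, BH-adjusted p = 0.0879), with 0.00695 without miR-424 replicate 3 and 0.280 with the GC trend removed. The groups of CTSC, too, did not overlap.

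Other peptidases overlapped between the groups or lay under the minimum. CTSD averaged 188 ± 19.1 FPKM in miR-424 cells and 199 ± 2.84 FPKM in EV cells (SD, n = 3 each), and its row covers chromosome 11, 1490684 to 1785501, a region that also holds MOB2, DUSP8 and several KRTAP5 genes. In miR-424 replicate 3 CTSD read 209 FPKM, above every EV library, whereas replicates 1 and 2 read 180.2 and 173 FPKM, below every EV library. Its log2 change was -0.09 with all libraries, -0.17 without replicate 3 and 0.02 with the GC trend removed (limma, BH-adjusted p = 0.527, 0.00225 and 0.849). CTSZ, a carboxypeptidase gene, was also highest in miR-424 replicate 3, at 181 FPKM, and replicates 1 and 2 read 152 and 146 FPKM, against 148 to 157 FPKM in EV libraries. CTSL1, another cysteine protease gene, read 81.8 to 89.6 FPKM in miR-424 libraries and 79.8 to 84.6 FPKM in EV libraries. CTSA, whose product also shields GLB1 and NEU1 from breakdown, averaged 44.8 ± 2.01 FPKM in miR-424 cells and 46.3 ± 0.714 FPKM in EV cells (SD, n = 3 each), in a row that also holds NEURL2 and PLTP. TPP1, a tripeptidyl peptidase gene mutated in a neuronal ceroid lipofuscinosis, averaged 25.1 ± 0.931 FPKM in miR-424 cells and 24.1 ± 0.365 FPKM in EV cells (SD, n = 3 each).

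CTSH, an aminopeptidase of the cathepsin family, had the smallest ratio of means of all 49 genes. It read 0.29995, 0.362 and 0.306 FPKM in miR-424 replicates 1, 2 and 3, against 0.733, 0.798 and 0.849 FPKM in EV replicates 1, 2 and 3 (chromosome 15, 79214091 to 79237420, hg19). The groups were well apart, with a ratio of mean FPKM of 0.407, miR-424 over EV. With a mean of 0.558 FPKM it was below the minimum for testing. Without that minimum, over 19342 loci of which 4.66% passed, 0.786% higher and 3.87% lower, it was lower, with a change of -0.44 on the log2(FPKM + 1) scale, which understates the change of low genes (limma, BH-adjusted p = 0.00652). The fragment counts behind these low values are unknown. CTSF, the other gene below the minimum, read 0.564 to 0.701 FPKM in miR-424 libraries and 0.727 to 0.916 FPKM in EV libraries (adjusted p = 0.201 in the same limma fit).

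**Figure D2:**
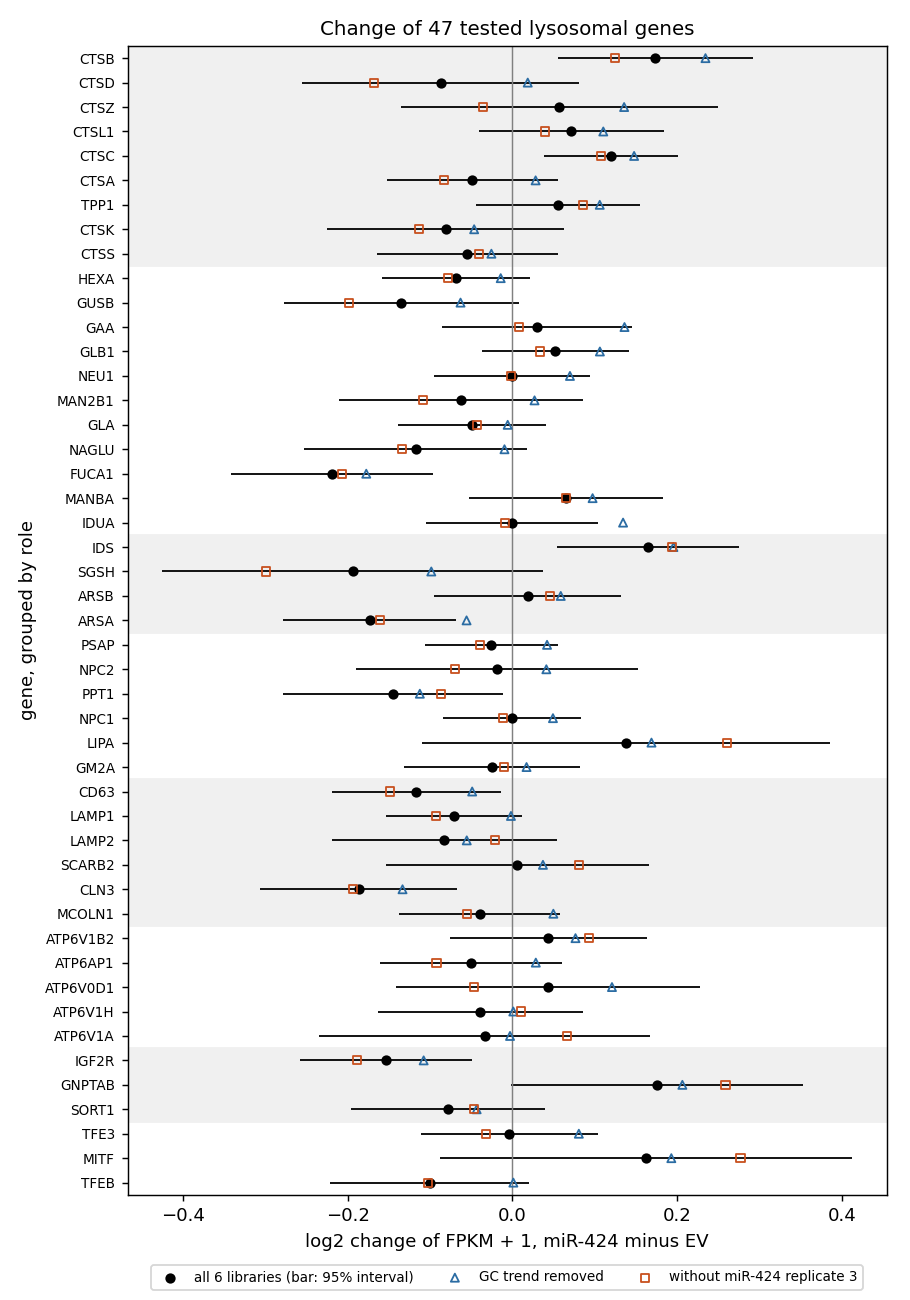
Log2 change of FPKM + 1, miR-424 minus EV, of the 47 tested genes grouped by role, with filled points and bars for the estimate and 95% confidence interval from all libraries (limma), triangles with the GC trend removed and squares without miR-424 replicate 3. Every interval lies within 0.5 of zero, and triangles sit to the right of filled points for most genes. Removing the GC trend also takes out the overall offset of each library, so this shift is not due to GC content alone.

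Glycosidases, which take sugars off glycoproteins, glycolipids and glycosaminoglycans, held the gene nearest to the threshold. FUCA1, which removes fucose, read 5.74, 5.89 and 5.64 FPKM in miR-424 replicates 1, 2 and 3, against 6.44, 7.24 and 6.94 FPKM in EV replicates 1, 2 and 3 (chromosome 1, 24171571 to 24194859, hg19). All miR-424 libraries lay below all EV libraries. The log2 change was -0.22 ± 0.05 (SE; limma, BH-adjusted p = 0.0528), and it passed without the trend in the prior variance (7.79% of tested loci passed there, 1.29% higher and 6.51% lower), with the GC trend removed (-0.18, adjusted p = 0.0462) and without miR-424 replicate 3 (-0.21, adjusted p = 0.0147); over 18 alternatives the adjusted p lay between 0.0147 and 0.218. HEXA, the highest glycosidase gene, encodes the alpha subunit of beta-hexosaminidase and read 29.9, 31.4 and 31.3 FPKM in miR-424 replicates, against 32.3, 32.7 and 32.3 FPKM in EV replicates. Its groups did not overlap, with a log2 change of -0.07 ± 0.04 (SE; limma, BH-adjusted p = 0.334).

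GUSB, the beta-glucuronidase gene that is often used as a reference in quantitative PCR, split the miR-424 libraries. It read 25.6 and 24.7 FPKM in miR-424 replicates 1 and 2 and 28.8 FPKM in replicate 3, against 28.8, 29.2 and 28.9 FPKM in EV replicates. Its log2 change was -0.13 ± 0.06 (SE) with all libraries, -0.20 without replicate 3 and -0.06 with the GC trend removed (limma, BH-adjusted p = 0.237, 0.00142 and 0.479). NAGLU, an enzyme of heparan sulfate breakdown, read 9.78 to 10.3 FPKM in miR-424 libraries and 10.2 to 11.7 FPKM in EV libraries. GLB1, the beta-galactosidase gene behind the senescence stain, read 21.0, 21.4 and 22.1 FPKM in miR-424 replicates and 20.6 to 20.8 FPKM in EV libraries, without overlap (log2 change 0.05). Its intron holds TMPPE, which shares the row. The other glycosidase genes GAA, GLA, IDUA, MANBA, MAN2B1 and NEU1 had log2 changes between -0.06 and 0.07. NEU1, the sialidase gene, averaged 18.6 ± 0.0642 FPKM in miR-424 cells and 18.6 ± 0.599 FPKM in EV cells (SD, n = 3 each). This is the highest of 8 rows with that symbol, and may be only a part of the level of the gene. IDUA changed sign in 8 of the 17 alternatives that tested it, and NEU1 in 8 of 18.

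Sulfatases split in direction. IDS, which takes a sulfate off heparan and dermatan sulfate, read 18.4, 19.6 and 17.8 FPKM in miR-424 replicates 1, 2 and 3, against 16.7, 16.2 and 16.5 FPKM in EV replicates 1, 2 and 3 (chromosome X, 148560294 to 148586884, hg19). Each miR-424 library was above each EV library. The log2 change was 0.16 ± 0.05 (SE; limma, BH-adjusted p = 0.0840), and it passed in 6 of 18 alternatives, among them the GC trend removed (0.20, adjusted p = 0.0196) and miR-424 replicate 3 left out (0.19, adjusted p = 0.00441). ARSA, which removes sulfate from sulfatide, read 3.28, 3.05 and 3.06 FPKM in miR-424 replicates, against 3.62, 3.67 and 3.69 FPKM in EV replicates. Its groups were apart, with a log2 change of -0.17 ± 0.04 (SE; limma, BH-adjusted p = 0.0631), which was -0.06 with the GC trend removed (adjusted p = 0.473) and -0.16 without miR-424 replicate 3 (adjusted p = 0.0207); its transcript has 66.0% GC. SGSH, the heparan sulfamidase, read 7.08, 6.17 and 8.46 FPKM in miR-424 replicates and 8.23 to 8.52 FPKM in EV libraries, in a row that overlaps CARD14. Its log2 change was -0.19 ± 0.10 (SE) with all libraries, -0.30 without replicate 3 and -0.10 with the GC trend removed (limma, BH-adjusted p = 0.293, 0.00516 and 0.459). ARSB, which acts on dermatan sulfate, overlapped between the groups at 3.60 ± 0.150 FPKM in miR-424 cells and 3.54 ± 0.128 FPKM in EV cells (SD, n = 3 each).

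**Figure D3:**
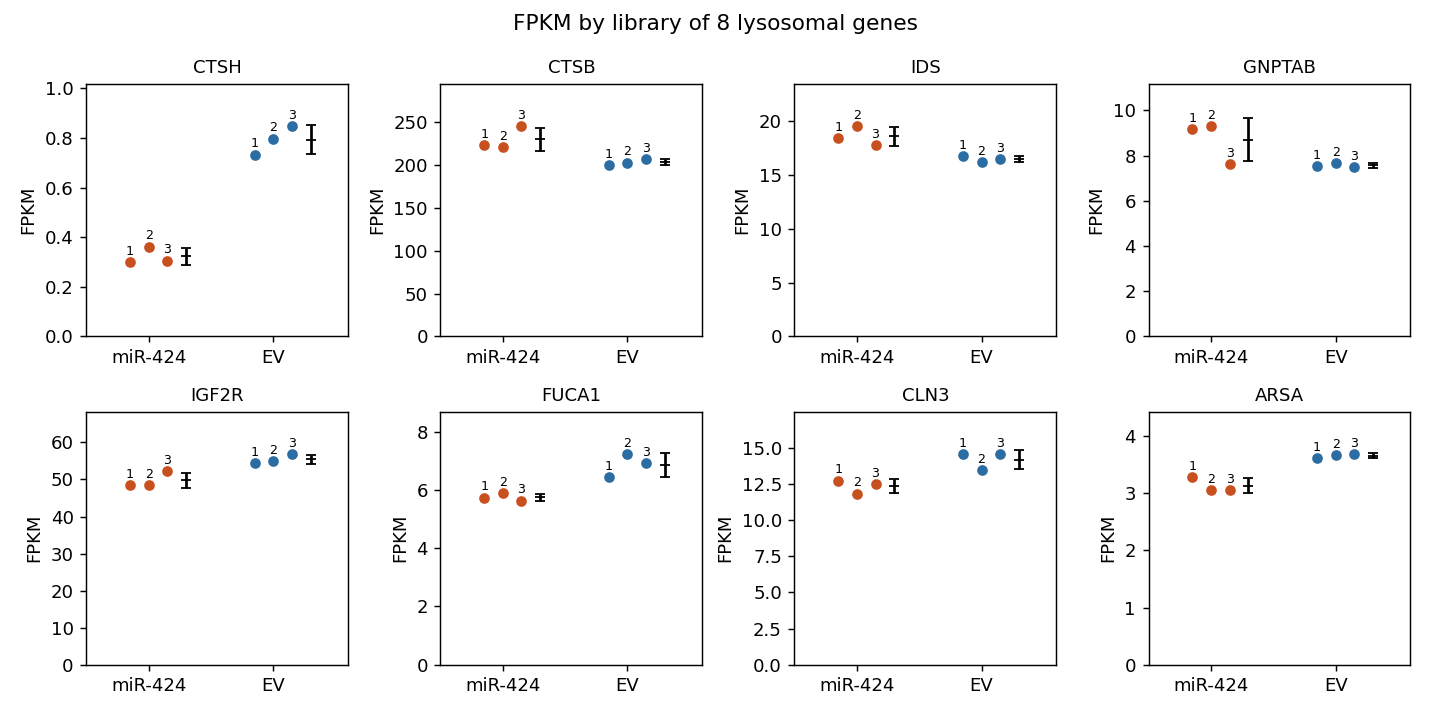
FPKM in each miR-424 library (left) and each EV library (right) of 8 genes, with replicate numbers beside the points and the mean and SD as bars; axes start at 0. CTSH shows the widest separation, from 0.29995 to 0.362 FPKM in miR-424 libraries and from 0.733 to 0.849 FPKM in EV libraries, and replicate 3 of GNPTAB lies among the EV values.

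Of the 6 genes of lipid breakdown and sterol export 0 passed the test, against 7.56% of all tested loci. PSAP, NPC1, NPC2 and GM2A had log2 changes between -0.03 and -0.00, and LIPA and PPT1 larger ones of opposite sign. PSAP read 298, 291 and 303 FPKM in miR-424 replicates 1, 2 and 3, against 305, 297 and 305 FPKM in EV replicates 1, 2 and 3, with a log2 change of -0.03 ± 0.03 (SE; limma, BH-adjusted p = 0.721). The cholesterol transporter gene NPC1 averaged 53.8 ± 1.02 FPKM in miR-424 cells and 53.8 ± 0.742 FPKM in EV cells (SD, n = 3 each), with a 95% interval of its log2 change from -0.08 to 0.08. Its partner NPC2, which hands cholesterol to NPC1, read 68.4 to 77.3 FPKM in miR-424 libraries and 67.1 to 78.7 FPKM in EV libraries. GM2A, the activator protein of beta-hexosaminidase, averaged 10.1 ± 0.205 FPKM in miR-424 cells and 10.2 ± 0.416 FPKM in EV cells (SD, n = 3 each). LIPA, the acid lipase gene, read 54.1 and 53.2 FPKM in miR-424 replicates 1 and 2 and 41.3 FPKM in replicate 3, against 46.9, 43.9 and 43.2 FPKM in EV replicates. Replicate 3 thus lay below every EV library and the other miR-424 libraries above them. Its log2 change was 0.14 ± 0.10 (SE) with all libraries, 0.26 without replicate 3 and 0.17 with the GC trend removed (limma, BH-adjusted p = 0.490, 0.00207 and 0.108). PPT1, the palmitoyl thioesterase gene whose 3' UTR match is printed above, read 67.7, 70.0 and 60.8 FPKM in miR-424 replicates, against 73.1, 72.7 and 73.6 FPKM in EV replicates. The groups did not overlap, with a log2 change of -0.15 ± 0.06 (SE; limma, BH-adjusted p = 0.179), which was -0.09 without replicate 3 (adjusted p = 0.0187) and -0.11 with the GC trend removed (adjusted p = 0.0523).

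For the membrane proteins, the groups of CD63, LAMP1 and CLN3 did not overlap and each was below EV, and 0 of 6 passed the test. Of all tested loci 33.5% did not overlap, 26.9% being lower in miR-424 cells, and 7.56% passed. CD63 read 315, 304 and 331 FPKM in miR-424 replicates 1, 2 and 3, against 339, 337 and 352 FPKM in EV replicates 1, 2 and 3, a log2 change of -0.12 ± 0.04 (SE; limma, BH-adjusted p = 0.164), which was -0.15 without replicate 3 (adjusted p = 0.00500) and -0.05 with the GC trend removed (adjusted p = 0.494). LAMP1 read 192, 193 and 202 FPKM in miR-424 replicates and 205, 205 and 207 FPKM in EV replicates, a log2 change of -0.07 ± 0.03 (SE; limma, BH-adjusted p = 0.280), which was -0.09 without replicate 3 (adjusted p = 0.00576) and -0.00 with the GC trend removed (adjusted p = 0.980). Scaling by median of ratios, which does not use GC content, gave nearly the same log2 changes, -0.047 for CD63 and -0.002 for LAMP1. CLN3, a membrane protein gene mutated in juvenile neuronal ceroid lipofuscinosis, read 12.7, 11.8 and 12.5 FPKM in miR-424 replicates, against 14.6, 13.5 and 14.6 FPKM in EV replicates (chromosome 16, 28488599 to 28503623, hg19). Its log2 change was -0.19 ± 0.05 (SE; limma, BH-adjusted p = 0.0750), and it passed without miR-424 replicate 3 (-0.19, adjusted p = 0.0157) but not with the GC trend removed (-0.13, adjusted p = 0.106). LAMP2, which also serves chaperone-mediated autophagy, read 72.9 and 73.5 FPKM in miR-424 replicates 1 and 2 and 64.2 FPKM in replicate 3, against 73.4 to 74.9 FPKM in EV libraries. SCARB2, the receptor that brings glucocerebrosidase to the lysosome, was likewise low in replicate 3, at 34.2 FPKM, with 40.2 and 40.0 FPKM in replicates 1 and 2, against 37.3 to 38.2 FPKM in EV libraries. MCOLN1, the calcium channel gene of the organelle, averaged 7.59 ± 0.166 FPKM in miR-424 cells and 7.83 ± 0.175 FPKM in EV cells (SD, n = 3 each).

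The proton pump genes overlapped between the groups in 5 of 5 cases, and 0 had an unadjusted p under 0.05; of all tested loci 33.5% did not overlap and 23.6% had such a p. ATP6V1B2, a subunit of the part that splits ATP, read 40.0, 39.9 and 35.9 FPKM in miR-424 replicates 1, 2 and 3, against 37.3, 37.7 and 37.1 FPKM in EV replicates 1, 2 and 3 (log2 change 0.04 ± 0.05, SE; limma, BH-adjusted p = 0.671). ATP6V1A, its catalytic partner, read 28.1 and 27.1 FPKM in miR-424 replicates 1 and 2 and 22.3 FPKM in replicate 3, against 26.0 to 26.6 FPKM in EV libraries. ATP6V0D1, of the part that sits in the membrane, was highest in miR-424 replicate 3 at 40.2 FPKM, with 33.6 and 32.6 FPKM in replicates 1 and 2, against 33.9 to 34.6 FPKM in EV libraries. ATP6V1H, a regulatory subunit, read 30.5 to 34.3 FPKM in miR-424 libraries and 32.8 to 34.1 FPKM in EV libraries. The accessory subunit gene ATP6AP1 averaged 36.5 ± 1.92 FPKM in miR-424 cells and 37.8 ± 0.391 FPKM in EV cells (SD, n = 3 each).

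Sorting genes for mannose 6-phosphate cargo lay on opposite sides. IGF2R, the large receptor that carries tagged hydrolases out of the Golgi and also binds insulin-like growth factor II, read 48.5, 48.5 and 52.2 FPKM in miR-424 replicates 1, 2 and 3, against 54.4, 54.99 and 56.9 FPKM in EV replicates 1, 2 and 3 (chromosome 6, 160390130 to 160527583, hg19). All miR-424 libraries were below all EV libraries. The log2 change was -0.15 ± 0.04 (SE; limma, BH-adjusted p = 0.0874), with -0.19 and adjusted p = 0.00170 without miR-424 replicate 3 and -0.11 and 0.218 with the GC trend removed. GNPTAB, a subunit of the enzyme that makes the tag, read 9.19, 9.32 and 7.62 FPKM in miR-424 replicates 1, 2 and 3, against 7.53, 7.68 and 7.503 FPKM in EV replicates 1, 2 and 3 (chromosome 12, 102139274 to 102224645, hg19). Replicates 1 and 2 were above every EV library and replicate 3 was among them. Its log2 change was 0.18 ± 0.07 (SE; limma, BH-adjusted p = 0.216), and it passed in 6 of 18 alternatives, with 0.21 and adjusted p = 0.0120 with the GC trend removed and 0.26 and 0.00103 without miR-424 replicate 3. SORT1, a sorting receptor that does not need the tag, averaged 2.06 ± 0.140 FPKM in miR-424 cells and 2.22 ± 0.0380 FPKM in EV cells (SD, n = 3 each).

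Of the 3 transcription factors, 0 passed the test. Of all tested loci 7.56% passed and 33.5% did not overlap between the groups, 26.9% being lower in miR-424 cells. TFE3 was the highest and read 11.2, 11.5 and 12.1 FPKM in miR-424 replicates 1, 2 and 3, against 11.4, 11.5 and 11.9 FPKM in EV replicates 1, 2 and 3, and a 95% interval of its log2 change from -0.11 to 0.10. TFEB read 1.54, 1.46 and 1.51 FPKM in miR-424 replicates, against 1.83, 1.62 and 1.597 FPKM in EV replicates, without overlap (log2 change -0.10 ± 0.05, SE; limma, BH-adjusted p = 0.297). With the GC trend removed that change was 0.00. MITF read 3.49 and 3.89 FPKM in miR-424 replicates 1 and 2 and 2.69 FPKM in replicate 3, against 3.01, 2.95 and 2.66 FPKM in EV replicates. The log2 change of MITF was 0.16 ± 0.11 (SE) with all libraries, 0.28 without replicate 3 and 0.19 with the GC trend removed (limma, BH-adjusted p = 0.417, 0.0105 and 0.0764).

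The E-box that these factors bind was looked for in the promoters (RefSeq, GRCh38.p14, 250 bases before to 50 after the start). CACGTG, which reads the same on both strands, stood in 11 of the 36 lysosomal promoters in the table, and the longer TCACGTGA, which contains it, in 7. Of the 36 genes 34 were tested, and 10 of these held CACGTG. Among promoters of tested loci the shares were 10.6% and 2.08%, and among all promoters read they were 7.43% and 1.04%. With 36 of 49 genes matched, under 80%, no share is given for the lysosomal set as a whole. Windows with the longer form are printed in capitals for GAA, MCOLN1, IGF2R and CLN3, a hydrolase, a channel, a receptor and a membrane protein gene.
GAA, chr17:80101493-80101522, plus strand: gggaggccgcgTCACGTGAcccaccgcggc
MCOLN1, chr19:7522598-7522627, plus strand: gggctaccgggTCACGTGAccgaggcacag
IGF2R, chr6:159969042-159969071, plus strand: ccgggcggctgTCACGTGAcgcggttccgg
CLN3, chr16:28492058-28492087, minus strand: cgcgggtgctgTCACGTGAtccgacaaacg
These 4 genes had log2 changes of 0.03, -0.04, -0.15 and -0.19 in the order printed, none of which passed the test. All 4 promoters hold further E-boxes that are not printed. Over all 7 genes with the longer form the median was -0.05, between -0.19 and 0.04. It was -0.06 for the 10 tested genes with CACGTG and -0.0006 for the 24 without. Over all tested loci the medians were -0.04 with CACGTG and -0.05 without, and these differences were not tested. A match to these letters does not show binding.

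**Figure D4:**
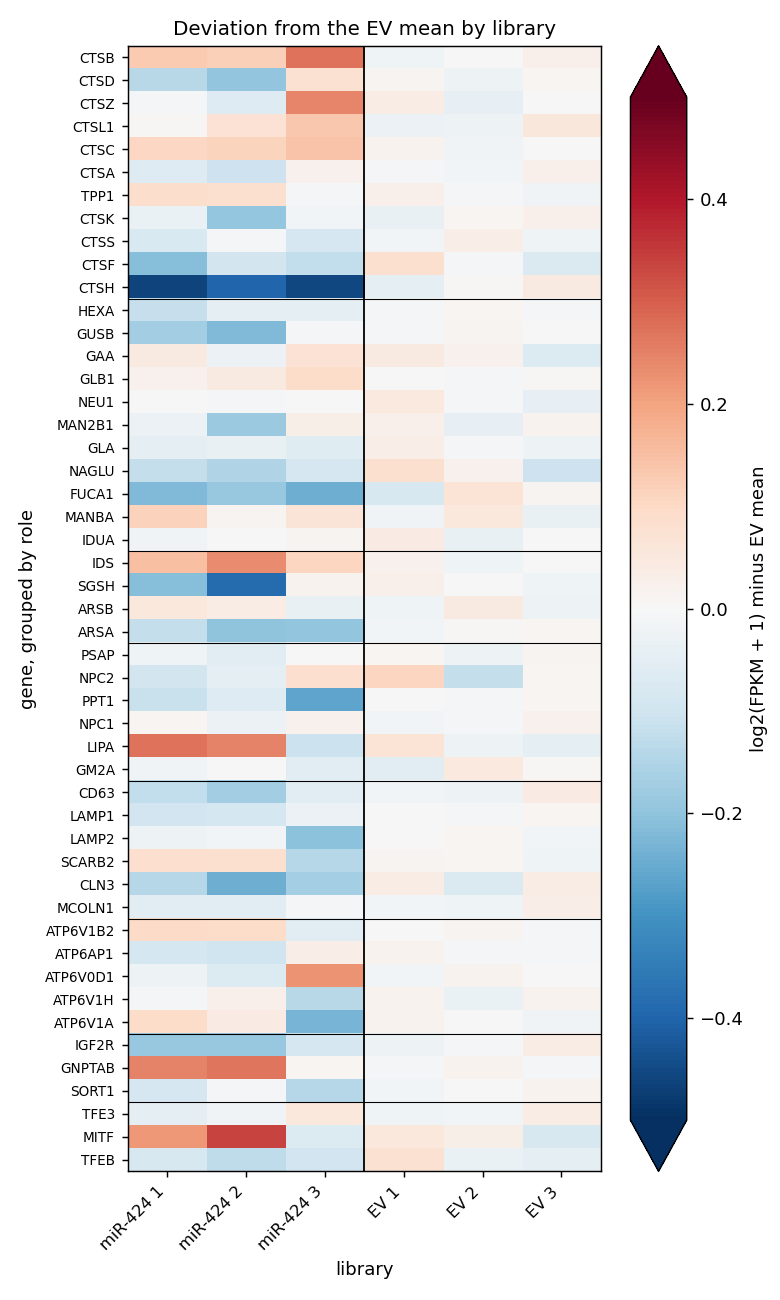
Deviation of log2(FPKM + 1) from the EV mean for the 49 genes (down, grouped by role) in the 3 miR-424 libraries (left of the line) and the 3 EV libraries (right), red above and blue below. CTSH is blue in every miR-424 library, and in LIPA, SCARB2, ATP6V1A and MITF replicate 3 has the opposite colour to replicates 1 and 2.

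The number of lysosomal genes past the threshold rested on miR-424 replicate 3. Without it, 9 genes were higher and 12 were lower (limma, BH-adjusted p under 0.05), 44.7% of the 47, against 37.2% of all tested loci, 14.9% higher and 22.2% lower. The higher genes were CTSB, CTSC, TPP1, IDS, LIPA, SCARB2, ATP6V1B2, GNPTAB and MITF, and the lower ones CTSA, CTSD, GUSB, FUCA1, SGSH, ARSA, PPT1, LAMP1, CD63, CLN3, ATP6AP1 and IGF2R. Replicate 3 lay outside the range of replicates 1 and 2 for 41 of the 47 genes (87.2%, against 89.5% of the tested loci with a GC value), and on the other side of the EV mean from both of them for 17 (36.2%, against 35.4%). Leaving out any other single library left 0 lysosomal genes past the threshold. Few loci of any kind passed in those fits: 0.96%, 0.95% and 1.03% without EV replicates 1, 2 and 3, and 2.96% and 3.87% without miR-424 replicates 1 and 2.

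The difference of replicate 3 also moved with GC content among the lysosomal genes. Across the 47 genes, the log2 difference of replicate 3 from the mean of replicates 1 and 2 correlated with transcript GC content (Pearson r = 0.64, Spearman rho = 0.66), against 0.55 and 0.62 across 11444 tested loci; these are descriptions across genes that share the same 3 libraries. The median difference was -0.23 for the 9 genes under 45% GC, 0.02 for the 21 genes from 45% to under 55% and 0.09 for the 17 genes of 55% and over, against -0.23, -0.07 and 0.04 over all tested loci in these ranges. Relative to the EV mean, replicate 3 had a median log2 deviation of -0.01 over the lysosomal genes and -0.11 over all tested loci; these differences were not tested. With the trend of each library on GC content removed, CTSB, IDS and GNPTAB were higher and FUCA1 was lower (8.51% of the 47, against 13.4% of tested loci, 6.27% higher and 7.17% lower). With the trend removed and replicate 3 left out, 10 were higher and 8 lower (38.3%, against 30.7%, 16.0% higher and 14.6% lower), and 14 of these 18 were also called in the same direction without replicate 3 alone, which is 77.8% of the 18 and 66.7% of those 21. The 14 were CTSB, TPP1, IDS, LIPA, ATP6V1B2, GNPTAB and MITF, which were higher, and GUSB, FUCA1, SGSH, PPT1, CD63, CLN3 and IGF2R, which were lower. Both fits used the same libraries, so their overlap is in part built in. The overlap over all tested loci is not given.

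**Figure D5:**
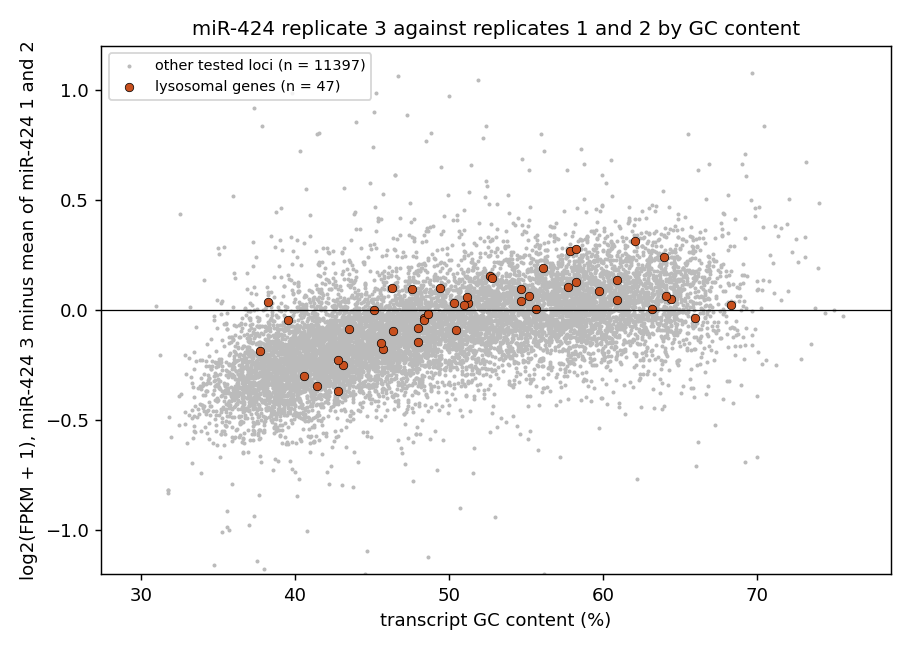
Log2(FPKM + 1) of miR-424 replicate 3 minus the mean of miR-424 replicates 1 and 2 against transcript GC content in percent, for 47 lysosomal genes (orange) and 11397 other tested loci (grey); 17 loci lie beyond the plotted range of 1.2 in either direction. Lysosomal genes of low GC content lie mostly below zero and those of high GC content mostly above.

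Genes of the organelle and of autophagy outside the set, 113 in 6 lists, gave 1 higher and 9 lower of 107 tested (9.35%, against 7.56% of all tested loci), with a median log2 change of -0.02. Further lysosomal hydrolases held 5 of the falls among 22 tested. SMPD1, acid sphingomyelinase, fell to 3.71, 3.33 and 3.56 FPKM in miR-424 replicates 1, 2 and 3, against 7.07, 7.11 and 7.28 FPKM in EV replicates 1, 2 and 3. It passed in 18 of 18 alternatives, and so did PLA2G15, a lysosomal phospholipase, which was at 5.27, 5.00 and 5.29 FPKM in miR-424 replicates, against 7.64, 7.16 and 7.38 FPKM in EV replicates. Their log2 changes were -0.85 ± 0.05 and -0.44 ± 0.05 (SE; limma, BH-adjusted p = 0.00115 and 0.00450). The groups of both were wide apart.

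The other calls outside the set did not hold in every alternative. Leaving out any EV library lowered the calls over all tested loci to between 110 and 119, against 875 with all libraries, and the log2 changes of LGMN, ATP6V0E2 and WIPI2 then differed by little. LGMN, the asparaginyl endopeptidase legumain, averaged 5.87 ± 0.248 FPKM in miR-424 cells and 7.67 ± 0.258 FPKM in EV cells (SD, n = 3 each), a log2 change of -0.34; it was -0.35, -0.35 and -0.31 without EV replicates 1, 2 and 3 and -0.33 without miR-424 replicate 1, and did not pass in these or with quantile normalization. The acid phosphatase gene ACP2 (-0.28) and CTSL2 (-0.21), a cathepsin gene named after its values were seen, did not pass without EV replicate 1, 2 or 3 or miR-424 replicate 1 or 2, nor with median-of-ratios or quantile scaling or with the replicate block. With the GC trend removed ACP2 passed and CTSL2 did not (-0.18; limma, BH-adjusted p = 0.122). Of 15 tested further pump genes 1 fell (6.67%, against 7.56% of all tested loci, 1.24% higher and 6.32% lower). This gene, ATP6V0E2, was at 3.33 ± 0.168 FPKM in miR-424 cells and 4.51 ± 0.0745 FPKM in EV cells (SD, n = 3 each). Its log2 change of -0.35 did not pass without EV replicate 1, 2 or 3, at -0.34, -0.35 and -0.36. Of 18 autophagy genes 3 fell and 1 rose (22.2%, against the same 7.56% of all tested loci). WIPI2, which binds phosphoinositide on forming autophagosomes, was at 17.7 ± 0.883 FPKM in miR-424 cells and 22.5 ± 0.385 FPKM in EV cells, and its relative WIPI1, the rise, at 16.0 ± 0.571 FPKM in miR-424 cells and 13.8 ± 0.393 FPKM in EV cells (SD, n = 3 each). GABARAPL1, an autophagosome membrane marker, and ATG9A, the lipid scramblase of the pathway, had log2 changes of -0.31 and -0.32. WIPI2 did not pass without EV replicate 1, 2 or 3, at log2 changes of -0.35, -0.32 and -0.33 against -0.33 with all libraries. GABARAPL1 did not pass without these, without miR-424 replicate 1 or with the replicate block. WIPI1 and ATG9A did not pass without any of the EV libraries or miR-424 replicate 1 or 2, nor did ATG9A with median-of-ratios or quantile scaling or WIPI1 without a minimum level or with the replicate block.

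In the 3 remaining lists 0 genes passed the limma test, against 7.56% of all tested loci. The shares with an unadjusted p under 0.05 lay under the 23.6% of all tested loci. Among 18 further membrane protein genes 3 had an unadjusted p under 0.05, and the 2 most abundant were LAPTM4B at 244 to 259 FPKM in miR-424 libraries and 243 to 251 FPKM in EV libraries, and LAPTM4A at 160.3 to 191 FPKM in miR-424 libraries and 203 to 212 FPKM in EV libraries. Among 18 sorting and fusion genes 2 had an unadjusted p under 0.05. Their most abundant were the small GTPase gene RAB7A at 184 ± 2.21 FPKM in miR-424 cells and 196 ± 11.1 FPKM in EV cells, and M6PR, the smaller mannose 6-phosphate receptor, at 68.9 ± 2.32 FPKM in miR-424 cells and 72.6 ± 0.847 FPKM in EV cells (SD, n = 3 each). Among 16 genes of nutrient sensing 3 had an unadjusted p under 0.05, and RHEB and RRAGA, both GTPase genes upstream of mTORC1, had log2 changes of -0.11 and 0.04.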

How the data were processed

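RNA was extracted after 48 hours and mRNA libraries were made with an Illumina kit, per the labels' protocols. The authors deposited 1 table of FPKM values, a column per sample, with hg19 positions; the submitters' processing notes name TopHat 1.4.1, Cufflinks 1.3.0, Cuffdiff and 2 names of that build (hg19, GRCh37), with no role or order. Not given in the sources used here are annotation, read numbers, scaling between libraries and use of strand, so no counting error is given and overlapping genes may share reads. Groups and columns were matched by sample title. Here, values were taken as log2(FPKM + 1), loci averaging 1 FPKM or more (11574) were tested with limma 3.58.1 in R 4.3.3 (trended prior variance, no covariate, two-sided, Benjamini-Hochberg adjustment over all tested loci, threshold 0.05), and the script was tested on simulated data. Fold changes on this scale understate those of low genes. An exact permutation test of 3 against 3 cannot go below 0.1 and was not used. GC content came from GENCODE 29 transcripts, by RefSeq accession or symbol (11444 tested loci), and its trend was removed by loess. The whole fitted curve was subtracted, which also takes out the overall offset of each library. Genes given in full were those past the threshold, the highest of each role and, after values were seen, those with a small p or a split by library; other genes were named by up to 4 smallest adjusted p or the 2 highest means per list. The members, lists and tests were chosen with earlier results of these data known.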

Additional observations from a re-analysis of the deposited data

How the results depend on the processing

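Among the 47 lysosomal genes, 0 were higher and 0 lower with all libraries as deposited. The higher and lower counts were 3 and 1 with the GC trend removed, 3 and 0 with the replicate block and GC trend removed (419 and 532 of all loci, 8.31%), 10 and 8 with the GC trend removed without miR-424 replicate 3, 2 and 0 with either median-of-ratios or quantile scaling, 0 and 1 (FUCA1) without a variance trend and 0 and 1 (CTSH) with no filter; leaving out single libraries gave 0 to 9 and 0 to 12. Other genes of the organelle, 1 higher and 9 lower, gave 9 and 11 with the GC trend removed, 4 and 9 with block and GC trend removed, 15 and 17 with the GC trend removed without miR-424 replicate 3, 3 and 6 with median-of-ratios and 2 and 6 with quantile scaling, 0 and 9 with no filter, and 0 to 17 and 2 to 27 without single libraries. Of the changes of single genes under 18 alternatives, 696 kept direction and side of the threshold, 50 newly passed, 90 changed sign without passing and 1 changed sign and passed (IDUA, 0.16 with the GC trend removed without miR-424 replicate 3). The cause was not tested, except that fewer libraries or more loci were tested by construction. Over all tested loci, 144 rises and 731 falls became 718 and 821 with the GC trend removed, 1728 and 2574 without miR-424 replicate 3 and 31 to 35 and 77 to 84 without an EV library and 63 and 280 or 83 and 365 without miR-424 replicate 1 or 2.

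Whether same-numbered libraries were handled together is not known here. Their deviations from the group means correlated at 0.05, 0.15 and 0.13 for replicates 1, 2 and 3, against -0.19 to 0.06 for libraries of different number. EV replicate 1 correlated best with miR-424 replicate 2 (0.06). The replicate block left 0 lysosomal genes past the threshold, 0 higher and 6 lower other genes and 349 loci in all, against 875. Read depth is unknown, which limits most the genes near or under 1 FPKM (CTSH, CTSF, CTSS).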
